A study of Mus musculus with 8 samples.

Results

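The effect of *Upf1* deletion was compared between early large pre-B (eLPre) and small pre-B (sPre) cells of Igh B1-8hi mice, gene by gene. The measure was the interaction, which is the log2 fold change of Upf1-cKO over Ctrl in sPre minus the same log2 fold change in eLPre. A positive interaction means that the cKO value, relative to Ctrl, was higher in sPre than in eLPre. The same number is the change from eLPre to sPre in cKO minus that change in Ctrl. Members were the genes with a CPM (read counts scaled to the size of the library) of 10 or more in both libraries of at least 1 group, called well-counted here. There were 10334 of them among 17700 genes tested and 27179 listed. At the CPM limit, Ffar1 lay just inside at 10.0003 CPM and Plcd3 just outside at 9.9966 CPM. The 4 groups had 2 libraries each. All mice carried *Upf1* Flox/Flox and the prearranged heavy chain Igh B1-8hi/+, and they were Mb1 +/+ in Ctrl and Mb1 Cre/+ in cKO. Mice of both sexes on a C57BL/6 background, 8 to 16 weeks old, were used. Mb1-Cre sits in the *Cd79a* locus and is expressed in the B lineage, and the loxP sites flank exons 4 to 6 of *Upf1*. Bone marrow cells without lineage markers or surface IgM that carried B220 were sorted, as large CD43+ CD2- cells for eLPre and as small CD43 low cells with CD25 and CD2 for sPre.

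UPF1 is the RNA helicase at the core of nonsense-mediated mRNA decay (NMD), which degrades transcripts with a premature stop codon and also a set of normal transcripts, among them host RNAs of small nucleolar RNAs. Pre-B cells divide as large cells under IL-7 and pre-B cell receptor signals, then leave the cycle as small cells and recombine the light chain genes. That passage lowers genes of DNA replication and mitosis and raises the recombinase, NF-kB target genes and surface receptors of later B cells.

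Libraries held 68516857 to 160426338 counts. The gene-level count of *Upf1* was 237 and 213 CPM in the Ctrl and 244 and 258 in the cKO eLPre libraries, and 186 and 198 in the Ctrl and 282 and 293 in the cKO sPre libraries. It was not lower in either cKO group, so each direction given for cKO rests on the labels, and the interaction of *Upf1* was 0.43 (SE 0.139, adjusted *P* = 0.127). The count of *Cd79a*, which Mb1-Cre interrupts on 1 allele, was lower in all 4 cKO libraries, with effects of -1.77 in eLPre and -2.08 in sPre. Beyond this, directions given for cKO follow the labels. The stage labels held in both genotypes. *Cd2*, a sort marker of sPre, had 5.45 and 5.64 CPM in the Ctrl and 4.95 and 6.18 in the cKO eLPre libraries, and 178 and 161 in the Ctrl and 149.7 and 135 in the cKO sPre libraries, and *Il2ra*, which encodes CD25, had 36.6 and 53.6 CPM in the Ctrl and 18.6 and 25.8 in the cKO eLPre libraries, and 476 and 479 in the Ctrl and 481 and 532 in the cKO sPre libraries. The Ctrl replicate 2 libraries of both stages had at most 304 counts of *Xist* and at least 4052 of each of *Ddx3y*, *Eif2s3y*, *Kdm5d* and *Uty*, and the other 6 libraries at least 290740 of *Xist*. Several interferon-stimulated genes were higher in the cKO replicate 2 libraries of both stages. RNA came from pools of sorted cells, in which fewer cells of a type and less RNA per cell cannot be told apart.

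The cKO effect differed between the stages for 549 of the 10334 well-counted genes (5.31%). Each adjusted *P* is from edgeR's quasi-likelihood test, corrected by the Benjamini-Hochberg procedure across the 17700 genes tested. The effect was more positive in sPre for 323 genes (3.13%) and more negative for 226 (2.19%). Which direction had more genes depended on the fit. More positive genes were the fewer without either Ctrl eLPre library, and slightly so with median-ratio factors. The difference was at least 1 on the log2 scale in 298 of the 549 genes and at least 2 in 71. A gene can be well-counted only through the group where it is high, and such genes were not counted apart. For all 549, the sign was the same in each of the 16 ways of taking 1 library from each group. Passing the test with 2 libraries per group nearly ensures this, so it adds no support. The median interaction was 0.0465 over well-counted genes, with a median SE of 0.172. At the threshold, *S1pr1* lay just inside with an adjusted *P* of 0.049713 and Slamf7 just outside with 0.050075. Cells labelled cKO had 1943 higher (18.8%) and 2330 lower (22.5%) well-counted genes in eLPre, and 2355 higher (22.8%) and 2040 lower (19.7%) in sPre.

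The 549 genes fell into 4 kinds. In 65 the effect reversed, meaning that cKO against Ctrl passed the test in each stage with opposite signs. Of these, 39 (0.377% of well-counted genes) were lower in cKO eLPre and higher in cKO sPre, and 26 (0.252%) were higher in eLPre and lower in sPre. In 140 the effect passed in both stages in 1 direction and differed in size. It passed in sPre and not in eLPre for 222 genes, of which 140 were higher and 82 lower in cKO sPre, and in eLPre and not in sPre for 122. With 1 library left out, the lone library of its group being taken to vary like the other groups, 97 (without cKO eLPre replicate 1) to 755 (without Ctrl sPre replicate 1) genes passed. The number moved by over 1.5 times without each library other than Ctrl sPre replicate 1, to 327 without Ctrl eLPre replicate 1, 191 without Ctrl eLPre replicate 2, 194 without cKO eLPre replicate 2, 205 without Ctrl sPre replicate 2, 189 without cKO sPre replicate 1 and 339 without cKO sPre replicate 2. Without both Ctrl replicate 2 libraries 77 genes passed, and without both cKO replicate 2 libraries 83.

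**Figure D1:**
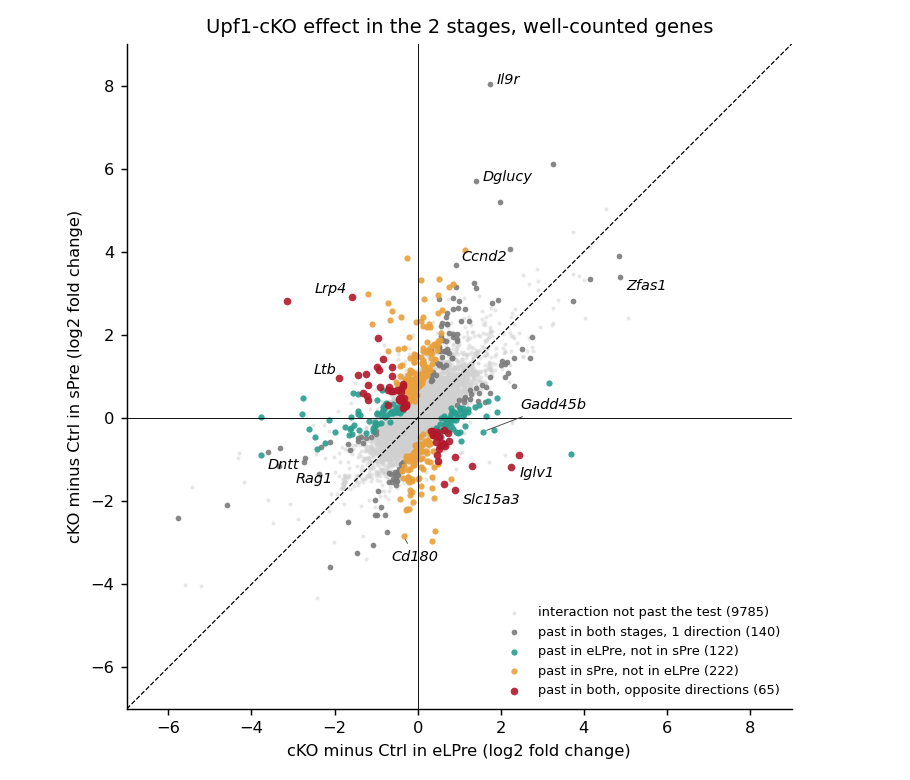
Log2 fold change of cKO over Ctrl in eLPre (x axis) and sPre (y axis) for 10334 well-counted genes, 1 point per gene, coloured by whether the interaction and the effect in each stage passed the test. Points on the dashed line have the same effect in both stages; the 65 reversing genes lie in the upper left and lower right corners. The axes stop short of the most negative effects, which reached -7.98 in eLPre and -13.85 in sPre, so those points are not drawn.

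Among the factors and targets of NMD, stage differences were found in both directions. Of 22 well-counted NMD and exon junction factors, 2 had a more negative effect in sPre (2.19% of all well-counted genes) and 0 a more positive one (3.13%), and the median interaction was 0.02, or -0.02 with median-ratio in place of TMM factors. *Smg9*, which forms a complex with the kinase of UPF1, had 30.97 and 29.3 CPM in the Ctrl and 67.7 and 63.4 in the cKO eLPre libraries, and 34.3 and 39.4 in the Ctrl and 40.04 and 40.7 in the cKO sPre libraries. It was higher in cKO eLPre, while the difference in sPre did not pass, and its interaction was -0.99 (SE 0.137, adjusted *P* = 0.011). *Smg6*, the endonuclease that cuts NMD targets, had an interaction of -0.71 (SE 0.146, adjusted *P* = 0.0346), with effects of 0.47 (adjusted *P* = 0.00955) in eLPre and -0.24 (adjusted *P* = 0.103) in sPre. *Smg5*, its partner in target decay, was higher in cKO in both stages and its interaction did not pass at -0.50 (SE 0.141, adjusted *P* = 0.0872), though it did with a replicate block within genotype at an adjusted *P* of 0.0368. Of the 28 RNAs on a list of reported NMD targets, 18 were higher in cKO eLPre and 20 in cKO sPre, against 18.8% and 22.8% of all well-counted genes. The interaction passed for 8 of them (5.31% of all), 3 more positive and 5 more negative in sPre, with a median of -0.06. This list includes targets that were described in these cells, so it is not independent evidence of direction.

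*Zfas1*, *Snhg12* and *Gas5*, which are host RNAs of small nucleolar RNAs, were higher in cKO at both stages, and more so in eLPre. Other host RNAs were not tallied. *Zfas1* had 22.8 and 21.6 CPM in the Ctrl and 573 and 732 in the cKO eLPre libraries, and 26.9 and 26.3 in the Ctrl and 263 and 293 in the cKO sPre libraries. The cKO libraries were far above Ctrl in both stages, with an interaction of -1.49 (SE 0.184, adjusted *P* = 0.00697). *Snhg12* had 14.1 and 12.7 CPM in Ctrl and 389 and 386 CPM in cKO eLPre, against 7.94 and 7.94 CPM in Ctrl and 115 and 122 CPM in cKO sPre, and its interaction was -0.96 (SE 0.125, adjusted *P* = 0.00884). *Gas5* had 108 and 112 CPM in Ctrl and 762 and 727 CPM in cKO eLPre, against 68.5 and 84.5 CPM in Ctrl and 294 and 297 CPM in cKO sPre, with an interaction of -0.81 (SE 0.165, adjusted *P* = 0.0342). *Snhg1*, a further host RNA that was chosen after its values were seen, had an interaction of -0.91. *Zfas1*, *Snhg12* and *Gas5* overlap small nucleolar RNA genes and *Zfas1* and *Gas5* also other genes. How the unstranded counting assigned reads there was not checked.

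The growth-arrest genes on the NMD list did not move together. *Gadd45b*, which encodes a stress sensor that binds cell cycle kinases, had 16.1 and 14.1 CPM in the Ctrl and 45.7 and 44.5 in the cKO eLPre libraries, and 29.6 and 33.1 in the Ctrl and 26.3 and 23.6 in the cKO sPre libraries. In eLPre both cKO libraries were above both Ctrl libraries, and in sPre both were below them, where the difference did not pass at -0.33 (adjusted *P* = 0.0529). Its interaction was -1.91 (SE 0.162, adjusted *P* = 0.0027). *Gadd45g*, its paralog (chosen after its values were seen), went the other way with an interaction of 1.76 and effects of 0.86 in eLPre and 2.61 in sPre. *Ddit3*, a stress transcription factor, was higher in cKO by 2.43 in eLPre and 2.05 in sPre, and its interaction of -0.38 (SE 0.183, adjusted *P* = 0.287) did not pass. Without each library in turn, the calls of *Zfas1*, *Snhg12* and *Gadd45b* held, and those of *Smg9*, *Smg6* and *Gas5* were lost without 1 or more libraries, with adjusted *P* up to 0.0572 (without cKO eLPre replicate 1), 0.109 (without cKO sPre replicate 1) and 0.115 (without cKO eLPre replicate 1).

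Of the 39 genes that were lower in cKO eLPre and higher in cKO sPre, 32 were protein coding genes with a symbol. Their median effect was -0.61 in eLPre and 0.66 in sPre. Several encode parts of the NF-kB pathway. NF-kB is a transcription factor that B cells use downstream of antigen and TNF family receptors, and it induces its own inhibitors. *Ltb* and the genes *Tnfaip3*, *Nfkbie* and *Birc3* were on a list of 21 pathway and feedback genes that was written after the values were seen, and this list supports nothing by itself. Of its 18 well-counted genes, 8 had a more positive effect in sPre (3.13% of all well-counted genes did) and 0 a more negative one, and 4 reversed.

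The start regions of *Ltb*, *Nfkbie* and *Tnfaip3* are shown because these genes reversed together and each holds a match to the kappa-B consensus, the sequence that NF-kB binds. Each runs from 250 bases before to 50 bases after the annotated start in the RefSeq annotation of GRCm38.p6, and capitals mark the matches on either strand. *Ltb* lies at chr17:35194257-35194556 on the plus strand, *Nfkbie* at chr17:45555450-45555749 on the plus strand and *Tnfaip3* at chr10:19015361-19015660 on the minus strand, where the matches begin 87, 106 and 125 bases before the start and *Tnfaip3* holds 2.
Ltb: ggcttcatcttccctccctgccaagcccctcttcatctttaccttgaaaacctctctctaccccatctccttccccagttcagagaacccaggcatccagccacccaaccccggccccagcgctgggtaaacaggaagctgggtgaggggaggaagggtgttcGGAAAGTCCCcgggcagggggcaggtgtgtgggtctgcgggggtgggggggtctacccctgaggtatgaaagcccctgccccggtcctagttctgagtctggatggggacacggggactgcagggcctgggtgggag
Nfkbie: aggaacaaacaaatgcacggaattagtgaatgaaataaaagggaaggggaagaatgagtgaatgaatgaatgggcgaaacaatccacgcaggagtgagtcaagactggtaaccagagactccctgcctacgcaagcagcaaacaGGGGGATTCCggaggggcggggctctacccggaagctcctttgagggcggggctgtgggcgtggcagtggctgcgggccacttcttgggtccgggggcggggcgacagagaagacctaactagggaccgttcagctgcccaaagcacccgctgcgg
Tnfaip3: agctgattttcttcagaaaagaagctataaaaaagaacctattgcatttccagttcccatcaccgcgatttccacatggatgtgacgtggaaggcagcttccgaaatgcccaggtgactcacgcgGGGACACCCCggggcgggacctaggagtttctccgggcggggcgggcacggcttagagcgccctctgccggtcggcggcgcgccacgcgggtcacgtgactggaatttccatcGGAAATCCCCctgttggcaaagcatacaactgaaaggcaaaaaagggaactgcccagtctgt
A promoter was found for 32 of the 39 genes, and 6 of these (18.8%) held a match, against 464 of 7862 well-counted genes (5.9%) and 1388 of all 27025 genes with a promoter (5.14%). The motif was searched because NF-kB genes had been seen among these 39, and *Ltb*, *Nfkbie* and *Tnfaip3* are 3 of the 6, so these shares are no support for a link to NF-kB. The others were *Rtn4rl2*, Fzr1 and Lrrc8b, and *Birc3* held no match in this window. Of the 26 genes that reversed the other way, 13 had a promoter and 1 held a match. A match is a description of the letters and not a site shown to be bound.

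*Ltb* (Entrez 16994, chromosome 17, 35194507 to 35196305), which encodes lymphotoxin beta, a membrane cytokine of the TNF family, had 4.13 and 3.59 CPM in the Ctrl and 1.26 and 0.824 in the cKO eLPre libraries, and 26.03 and 32.9 in the Ctrl and 61.7 and 52.9 in the cKO sPre libraries. The groups of each stage did not overlap. The effect was -1.90 (adjusted *P* = 0.00043) in eLPre and 0.96 (adjusted *P* = 0.00573) in sPre, and the interaction was 2.86 (SE 0.290, adjusted *P* = 0.00346). *Tnfaip3* (Entrez 21929, chromosome 10, 19000910 to 19015410), which encodes the ubiquitin-editing enzyme A20 that limits NF-kB signals, had 38.03 and 34.7 CPM in the Ctrl and 15.6 and 15.8 in the cKO eLPre libraries, and 158 and 154 in the Ctrl and 216 and 231 in the cKO sPre libraries. Cells labelled cKO were below Ctrl in eLPre and above Ctrl in sPre with no overlap, and the interaction was 1.73 (SE 0.120, adjusted *P* = 0.00102). *Nfkbie* (Entrez 18037, chromosome 17, 45555700 to 45563169) encodes an inhibitor that holds NF-kB in the cytoplasm. Its values were 42.02 and 46.2 CPM in Ctrl and 34.1 and 32.8 CPM in cKO eLPre, against 161 and 177 CPM in Ctrl and 254 and 297 CPM in cKO sPre, and its interaction was 1.10 (SE 0.150, adjusted *P* = 0.0103). *Birc3*, a ubiquitin ligase at TNF receptors, had 34.5 and 44.7 CPM in Ctrl and 23.9 and 28.2 CPM in cKO eLPre, against 253 and 268 CPM in Ctrl and 446 and 376 CPM in cKO sPre, with an interaction of 1.26 (SE 0.209, adjusted *P* = 0.0187). For both genes the Ctrl libraries rose from eLPre to sPre and the cKO libraries rose further.

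The other 4 called genes of that list did not reverse. *Map3k8*, a kinase downstream of NF-kB p105, had an interaction of 1.05 (SE 0.202, adjusted *P* = 0.0296), and *Tank*, a scaffold of the pathway, one of 0.81 (SE 0.182, adjusted *P* = 0.0461), each with a higher cKO level in sPre and an effect in eLPre that did not pass. *Ikbke*, a kinase that phosphorylates IkB, was higher in cKO in both stages by 1.23 and 2.32, with an interaction of 1.10 (SE 0.221, adjusted *P* = 0.0333). *Cd83*, a surface protein of activated B and dendritic cells, had 0.166 and 0.269 CPM in Ctrl and 0.514 and 0.254 CPM in cKO eLPre, against 1.88 and 1.28 CPM in Ctrl and 15.7 and 13.8 CPM in cKO sPre, with an interaction of 2.37 (SE 0.523, adjusted *P* = 0.044). The calls of *Ltb* and *Tnfaip3* held without each library in turn. *Nfkbie* reached 0.0529 without Ctrl eLPre replicate 2, *Birc3* 0.079 without cKO eLPre replicate 1, *Map3k8* 0.119 without cKO eLPre replicate 1, *Tank* 0.153 without cKO eLPre replicate 1, *Ikbke* 0.123 without cKO eLPre replicate 1 and *Cd83* 0.162 without Ctrl eLPre replicate 2.

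The other large reversals of this direction were in genes of differing roles. *Lrp4* (Entrez 228357, chromosome 2, 91457456 to 91513901), a receptor of the LDL receptor family, had 3.17 and 2.17 CPM in the Ctrl and 0.965 and 0.839 in the cKO eLPre libraries, and 3.54 and 2.62 in the Ctrl and 17.8 and 28.4 in the cKO sPre libraries. It was below Ctrl in both cKO eLPre libraries and above Ctrl in both cKO sPre libraries, with an interaction of 4.48 (SE 0.408, adjusted *P* = 0.00285). *Rtn4rl2*, a receptor related to the Nogo receptor, had 1.43 and 0.9997 CPM in Ctrl and 0.634 and 0.631 CPM in cKO eLPre, against 4.33 and 4.25 CPM in Ctrl and 17.1 and 15.4 CPM in cKO sPre, and its interaction was 2.87 (SE 0.279, adjusted *P* = 0.00344). *Stat4*, which transmits IL-12 signals, had 17.8 and 15.6 CPM in Ctrl and 8.01 and 9.01 CPM in cKO eLPre, against 4.79 and 5.83 CPM in Ctrl and 13.4 and 11.5 CPM in cKO sPre. Its change from eLPre to sPre was -1.66 on the log2 scale in Ctrl and 0.55 in cKO, both past the test, and the interaction was 2.20 (SE 0.222, adjusted *P* = 0.00346). *Ankrd33b*, an ankyrin repeat gene, had 69.6 and 54.3 CPM in Ctrl and 23.8 and 28.7 CPM in cKO eLPre, against 40.5 and 34.3 CPM in Ctrl and 70.1 and 84.4 CPM in cKO sPre, and its interaction was 2.29 (SE 0.225, adjusted *P* = 0.00344). *Adgrl2*, an adhesion receptor, had an interaction of 2.27 (SE 0.394, adjusted *P* = 0.0216). *Lipc*, which encodes hepatic lipase, had one of 2.47 (SE 0.364, adjusted *P* = 0.0134), on values of at most 0.910 CPM in eLPre.

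*Bcl6*, a transcriptional repressor of the cell cycle and of germinal centre B cells, also reversed. It had 24.01 and 19.02 CPM in the Ctrl and 12.2 and 14.6 in the cKO eLPre libraries, and 35.4 and 23.5 in the Ctrl and 50.3 and 48.4 in the cKO sPre libraries, and its interaction was 1.43 (SE 0.280, adjusted *P* = 0.0301). *Clec2g*, a C-type lectin gene, had the largest fitted interaction of the reversing genes at 5.96 (SE 1.35, adjusted *P* = 0.0474). That value rested on a Ctrl eLPre group whose libraries differed widely, at 7.17 and 0.436 CPM, and without Ctrl eLPre replicate 1 the interaction was 2.74 and did not pass. *Clec2g* also overlaps a long noncoding RNA gene. The calls of *Lrp4*, *Rtn4rl2*, *Ankrd33b* and *Stat4* held without each library in turn, and the highest adjusted *P* of the others was 0.063 for *Lipc*, 0.0781 for *Adgrl2*, 0.117 for *Bcl6* and 0.163 for *Clec2g*, in each case without cKO eLPre replicate 1.

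**Figure D2:**
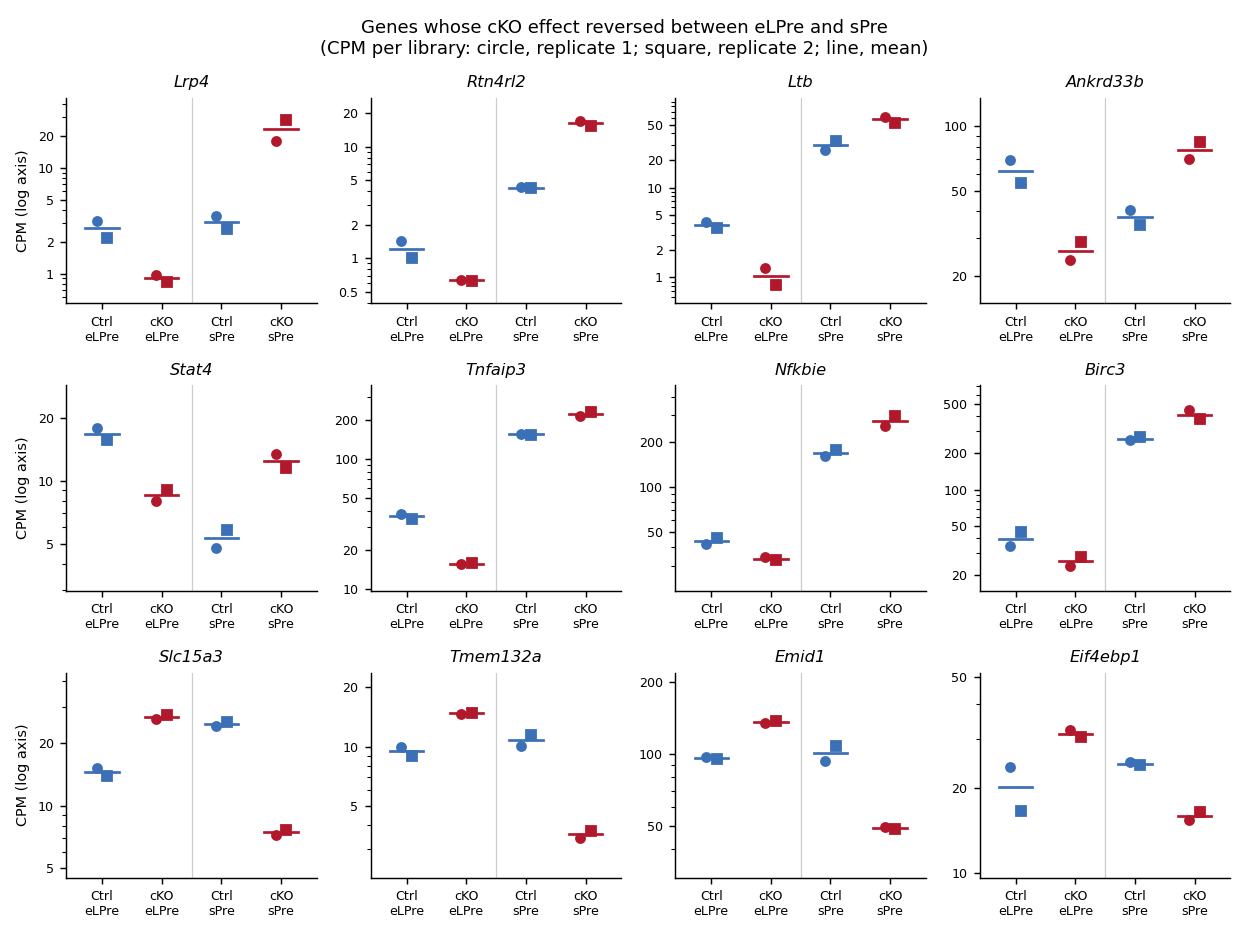
CPM of 12 reversing genes in each library on log axes, with 1 panel per gene. The first 8 panels show genes below Ctrl (blue) in cKO (red) eLPre and above Ctrl in cKO sPre, and the last 4 the opposite order; within each stage the cKO and Ctrl libraries do not overlap, with *Ltb* at 1.26 and 0.824 against 4.13 and 3.59 CPM in eLPre.

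The 26 genes of the opposite direction were higher in cKO eLPre and lower in cKO sPre, with a median effect of 0.56 and of -0.61. *Slc15a3* (Entrez 65221, chromosome 19, 10842544 to 10857915), which encodes a lysosomal transporter of histidine and peptides, had 15.1 and 13.8 CPM in the Ctrl and 26.1 and 27.4 in the cKO eLPre libraries, and 24.1 and 25.3 in the Ctrl and 7.19 and 7.66 in the cKO sPre libraries. Both cKO eLPre libraries were above Ctrl and both cKO sPre libraries far below, and the interaction was -2.62 (SE 0.161, adjusted *P* = 0.00068). *Tmem132a* (Entrez 98170, chromosome 19, 10857829 to 10870205), its neighbour, had 10 and 8.91 CPM in the Ctrl and 14.6 and 14.9 in the cKO eLPre libraries, and 10.1 and 11.5 in the Ctrl and 3.44 and 3.72 in the cKO sPre libraries, with an interaction of -2.23 (SE 0.193, adjusted *P* = 0.00278). These 2 genes overlap by 87 bases and were counted without strand, and how reads of that stretch were assigned was not checked. *Emid1*, an extracellular matrix protein, had 97.01 and 95.5 CPM in Ctrl and 134 and 137 CPM in cKO eLPre, against 93.6 and 108 CPM in Ctrl and 49.3 and 48.5 CPM in cKO sPre, and its interaction was -1.54 (SE 0.127, adjusted *P* = 0.00235). *Eif4ebp1*, a repressor of cap-dependent translation and a target of the stress factor ATF4, had 23.9 and 16.6 CPM in Ctrl and 32.4 and 30.4 CPM in cKO eLPre, against 24.8 and 24.1 CPM in Ctrl and 15.4 and 16.4 CPM in cKO sPre, with an interaction of -1.25 (SE 0.232, adjusted *P* = 0.0269).

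The other named genes of this direction have diverse roles. *Unc5cl*, a death domain protein, had an interaction of -1.83 (SE 0.330, adjusted *P* = 0.0247). *Dhrs3*, a retinal reductase, had one of -1.35 (SE 0.214, adjusted *P* = 0.0166), and it overlaps *Vps13d* over 35676 bases. *Fndc3b*, a membrane protein with fibronectin domains, had one of -1.33 (SE 0.217, adjusted *P* = 0.0181). *Clip2*, a microtubule linker, had one of -1.31 (SE 0.252, adjusted *P* = 0.0295), and *Klc3*, a kinesin light chain, one of -1.28 (SE 0.186, adjusted *P* = 0.0133) with an overlap of 1255 bases with *Ercc2*. *Slc15a3*, *Tmem132a* and *Emid1* kept their calls without each library in turn. Without cKO eLPre replicate 1 the adjusted *P* was 0.0902 for *Unc5cl*, 0.075 for *Dhrs3*, 0.0746 for *Fndc3b*, 0.0608 for *Klc3* and 0.101 for *Eif4ebp1*, and without Ctrl eLPre replicate 2 it was 0.084 for *Clip2*.

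The 3 lambda light chain segments of this direction were picked once their values were known. Light chain genes recombine in sPre cells, after the stage at which eLPre cells were sorted. *Iglv1* had 0.796 and 1.06 CPM in the Ctrl and 4.36 and 4.26 in the cKO eLPre libraries, and 325 and 291 in the Ctrl and 137 and 136 in the cKO sPre libraries. Its level in eLPre was low in all 4 libraries and higher in cKO, and its level in sPre was lower in cKO, with an interaction of -3.42 (SE 0.177, adjusted *P* = 0.000401). *Iglv2* had 0.0940 and 0.282 CPM in Ctrl and 0.744 and 1.06 CPM in cKO eLPre, against 86.8 and 72.7 CPM in Ctrl and 44.04 and 42 CPM in cKO sPre and an interaction of -3.32 (SE 0.442, adjusted *P* = 0.00963). *Iglc2*, a constant segment, had 0.376 and 0.654 CPM in Ctrl and 1.19 and 1.22 CPM in cKO eLPre, against 178 and 155 CPM in Ctrl and 73.8 and 76.1 CPM in cKO sPre and an interaction of -2.45 (SE 0.259, adjusted *P* = 0.00387). These segments have near-identical paralogs, and how their reads were divided is uncertain. Their 3 calls held without each library in turn.

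Most genes of the cell cycle had a positive interaction. Of 52 well-counted genes of DNA replication, 48 did, against 5812 of 10334 well-counted genes (56.2%), and the median was 0.73 against 0.0465. The interaction of 6 of them passed the test, all more positive in sPre. In eLPre 6 genes of this list were lower in cKO and 0 higher, while in sPre 24 were higher and 2 lower. Over all well-counted genes 22.5% were lower and 18.8% higher in eLPre, and 22.8% higher and 19.7% lower in sPre. From eLPre to sPre the median change of the list was -3.04 in Ctrl and -2.53 in cKO. The 51 genes of mitosis and G2/M all had a positive interaction with a median of 0.99, and 2 passed the test, beside 3.13% of all well-counted genes. The counts of both lists depended on the fit. More positive effects were called for 25 replication and 33 mitosis genes with DESeq2, where 710 of all well-counted genes were, and for 34 and 26 with a replicate block within genotype, where 1025 were. In eLPre 1 was higher and 6 lower in cKO, and in sPre 22 were higher and 1 lower. Beside these genes, the summed level of 8 stage markers of eLPre was 6009 and 6381 CPM in Ctrl and 3870 and 4119 CPM in cKO eLPre, and 1355 and 1059 CPM in Ctrl and 1395 and 1780 CPM in cKO sPre, and its part in the result was not tested. In eLPre most of that sum was *Mki67*, itself a marker of cycling cells, so the sum is no separate measure of stage there.

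*Prim2* (Entrez 19076, chromosome 1, 33453808 to 33669808), the large subunit of DNA primase, had 85.4 and 87.4 CPM in the Ctrl and 75.9 and 86.4 in the cKO eLPre libraries, and 18.96 and 20.5 in the Ctrl and 53.4 and 61.5 in the cKO sPre libraries. The 4 eLPre libraries overlapped between genotypes, and in sPre cKO was above Ctrl in both libraries, with an interaction of 1.63 (SE 0.147, adjusted *P* = 0.00285). *Mcm7*, a subunit of the replicative helicase, had 636 and 522 CPM in Ctrl and 463 and 483 CPM in cKO eLPre, against 101 and 88.01 CPM in Ctrl and 164 and 191 CPM in cKO sPre, and its interaction was 1.20 (SE 0.191, adjusted *P* = 0.0167). *Chaf1a*, a histone chaperone at replication forks, had an interaction of 1.10 (SE 0.213, adjusted *P* = 0.0295), and *Rfc4*, a subunit of the clamp loader, one of 0.74 (SE 0.149, adjusted *P* = 0.033). *Mybl2*, a transcription factor of late cell cycle genes, had 177 and 159 CPM in Ctrl and 187 and 197 CPM in cKO eLPre, against 15.6 and 11.3 CPM in Ctrl and 39.7 and 43.1 CPM in cKO sPre, with an interaction of 1.43 (SE 0.198, adjusted *P* = 0.011). *Bub1*, a spindle checkpoint kinase, had an interaction of 1.26 (SE 0.273, adjusted *P* = 0.0415). *Mki67*, a marker of cycling cells chosen after its values were seen, had 4460 and 4927 CPM in Ctrl and 2906 and 3071 CPM in cKO eLPre, against 716 and 359.6 CPM in Ctrl and 661 and 749 CPM in cKO sPre, and its interaction of 1.04 (SE 0.402, adjusted *P* = 0.187) did not pass. *Prim2* kept its call without each library in turn, and without cKO eLPre replicate 1 the adjusted *P* was 0.0729 for *Mcm7*, 0.101 for *Chaf1a*, 0.133 for *Rfc4* and 0.0504 for *Mybl2*, and without Ctrl eLPre replicate 2 it was 0.144 for *Bub1*.

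Among 26 G1 cyclins, cyclin-dependent kinases and their inhibitors or regulators, 5 had a more positive effect in sPre and 0 a more negative one, against 3.13% and 2.19% of all well-counted genes, with a median interaction of 0.33. *Ccnd2* (Entrez 12444, chromosome 6, 127125162 to 127152188), cyclin D2, a D-type cyclin that drives entry into S phase, had 168 and 145 CPM in the Ctrl and 333 and 257 in the cKO eLPre libraries, and 18.1 and 12.1 in the Ctrl and 227 and 158 in the cKO sPre libraries. Its change from eLPre to sPre was -3.37 on the log2 scale in Ctrl and -0.62 in cKO. The cKO effect was 0.91 (adjusted *P* = 0.0161) in eLPre and 3.67 (adjusted *P* = 4.07e-05) in sPre, and the interaction was 2.76 (SE 0.326, adjusted *P* = 0.00612). *Cdkn1a* (Entrez 12575, chromosome 17, 29090979 to 29100722), which encodes the CDK inhibitor p21 and stands on this list, the p53 list and the NMD list, had 49.4 and 44.7 CPM in the Ctrl and 58.03 and 55.5 in the cKO eLPre libraries, and 4.54 and 3.50 in the Ctrl and 21.1 and 17.4 in the cKO sPre libraries. Its effect in eLPre did not pass at 0.27 (adjusted *P* = 0.184), and in sPre it was 2.26 (adjusted *P* = 4.07e-05), with an interaction of 1.99 (SE 0.208, adjusted *P* = 0.00384). Both the cyclin and the CDK inhibitor were higher in cKO sPre. *Mxd4*, an antagonist of MYC, was lower in cKO in both stages and less so in sPre, with an interaction of 0.96 (SE 0.183, adjusted *P* = 0.0293).

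Targets of p53, the transcription factor of the DNA damage response, had a more positive effect in sPre in 5 of 19 well-counted genes, a more negative one in 0 (3.13% and 2.19% of all), and a median interaction of 0.43. In eLPre 5 were higher and 5 lower in cKO, where 18.8% and 22.5% of all well-counted genes were, and in sPre 10 were higher and 1 lower, where 22.8% and 19.7% were. *Ccng1*, cyclin G1, had 69.7 and 60.1 CPM in Ctrl and 53.2 and 59.8 CPM in cKO eLPre, against 81.05 and 67.02 CPM in Ctrl and 137 and 133 CPM in cKO sPre, and its interaction was 1.07 (SE 0.168, adjusted *P* = 0.0164). *Trp53cor1*, a noncoding RNA near *Cdkn1a*, had 1.82 and 2.47 CPM in Ctrl and 2.80 and 4.46 CPM in cKO eLPre, against 1.52 and 1.66 CPM in Ctrl and 16.7 and 11.4 CPM in cKO sPre, with an interaction of 2.38 (SE 0.403, adjusted *P* = 0.0204). *Zmat3*, an RNA-binding protein, had an interaction of 1.43 (SE 0.312, adjusted *P* = 0.0426). *Bbc3*, which encodes the death factor PUMA and was chosen after its values were seen, was higher in cKO in both stages, by 1.80 in eLPre and 2.78 in sPre, with an interaction of 0.98. Of the 11 genes of the BCL2 family, all had a positive interaction with a median of 0.41, and 0 passed edgeR's quasi-likelihood test, with 6 at an unadjusted *P* under 0.05, 2 called by DESeq2 and 4 by edgeR with a replicate block within genotype.

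The receptor of IL-7 and its JAK-STAT5 pathway, which drive pre-B cell division, had 17 well-counted genes with 3 more positive and 0 more negative in sPre (3.13% and 2.19% of all). *Ccnd2* and *Jak3* were among the former. *Jak3*, the kinase of the common gamma chain, had 57.5 and 49.99 CPM in Ctrl and 67.6 and 65.4 CPM in cKO eLPre, against 18.4 and 22.6 CPM in Ctrl and 47.97 and 43.6 CPM in cKO sPre, with an interaction of 0.85 (SE 0.170, adjusted *P* = 0.0321). Without each library in turn, *Ccnd2* and *Cdkn1a* held their calls, and the highest adjusted *P* was 0.0956 for *Mxd4* and 0.145 for *Zmat3* (both without Ctrl sPre replicate 2), 0.0691 for *Ccng1* and 0.109 for *Jak3* (both without cKO eLPre replicate 1), and 0.0711 for *Trp53cor1* (without Ctrl eLPre replicate 2).

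**Figure D3:**
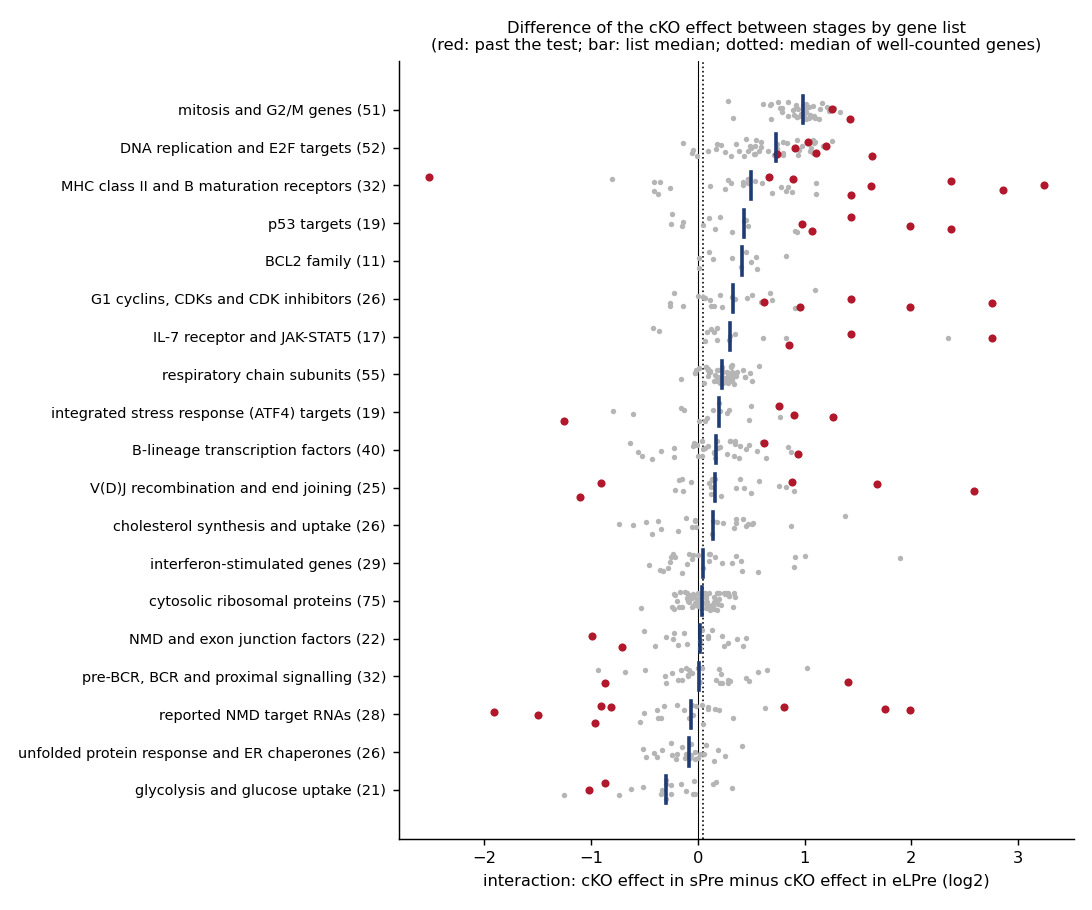
Interaction of the well-counted genes of 19 gene lists (x axis, log2), with the number of genes in brackets; red points passed the test, grey points did not, bars are list medians and the dotted line is the median of all well-counted genes, 0.0465. Medians of mitosis (0.99) and DNA replication (0.73) lie farthest to the right and that of glycolysis (-0.30) farthest to the left.

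Genes of V(D)J recombination differed in both directions. Of 25 well-counted genes, 3 had a more positive and 2 a more negative effect in sPre, against 3.13% and 2.19% of all. *Dntt* (Entrez 21673, chromosome 19, 41029275 to 41059525), the polymerase that adds nucleotides at heavy chain joins, had 272 and 239.9 CPM in the Ctrl and 26.8 and 24.8 in the cKO eLPre libraries, and 6.60 and 4.44 in the Ctrl and 2.77 and 3.89 in the cKO sPre libraries. It was lower in cKO in both stages, with effects of -3.31 (adjusted *P* = 3.79e-05) in eLPre and -0.72 (adjusted *P* = 0.0253) in sPre, with an interaction of 2.59 (SE 0.280, adjusted *P* = 0.00433). *Rag1* (Entrez 19373, chromosome 2, 101638252 to 101649532), the catalytic subunit of the recombinase, had 409 and 385 CPM in the Ctrl and 43.99 and 74.95 in the cKO eLPre libraries, and 3508 and 2964 in the Ctrl and 1497 and 1612 in the cKO sPre libraries. It was lower in both stages too and more so in eLPre, with an interaction of 1.68 (SE 0.333, adjusted *P* = 0.0315). From eLPre to sPre its level rose by a log2 of 3.03 in Ctrl and 4.71 in cKO. *Rag2*, its partner, was chosen after its values were seen and had 88.99 and 85.9 CPM in Ctrl and 36.5 and 48.6 CPM in cKO eLPre, against 155 and 144 CPM in Ctrl and 131 and 138 CPM in cKO sPre, with an interaction of 0.89 (SE 0.182, adjusted *P* = 0.0346).

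The 2 genes of that list with a more negative effect in sPre act in end joining. *Paxx*, a factor that stabilises Ku at breaks, had 10.9 and 9.71 CPM in Ctrl and 44.95 and 48.3 CPM in cKO eLPre, against 19.3 and 23.8 CPM in Ctrl and 43.3 and 47.3 CPM in cKO sPre and an interaction of -1.10 (SE 0.181, adjusted *P* = 0.0181). It overlaps Clic3 by 1935 bases. *Xrcc5*, which encodes the Ku80 subunit, had 26.7 and 25.1 CPM in Ctrl and 30.99 and 31.8 CPM in cKO eLPre, against 13.1 and 13.6 CPM in Ctrl and 8.75 and 8.53 CPM in cKO sPre and an interaction of -0.91 (SE 0.150, adjusted *P* = 0.0182). *Dntt* kept its call without each library in turn, and the highest adjusted *P* was 0.0898 for *Rag1* and 0.111 for *Rag2* (both without Ctrl sPre replicate 2), 0.075 for *Paxx* (without cKO sPre replicate 1) and 0.082 for *Xrcc5* (without cKO eLPre replicate 1).

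Transcription factors of the B lineage were mostly lower in cKO at both stages, 28 of 40 in eLPre and 22 in sPre, against 22.5% and 19.7% of all well-counted genes. The interaction passed for 2, close to the 5.31% of all. *Foxo1*, which activates the Rag genes, had 231 and 234 CPM in Ctrl and 114 and 119.6 CPM in cKO eLPre, against 682 and 667 CPM in Ctrl and 533 and 503 CPM in cKO sPre, and an interaction of 0.62 (SE 0.139, adjusted *P* = 0.0468). *Lef1*, a factor of the Wnt pathway expressed in early B cells, had 309.9 and 267 CPM in Ctrl and 130.5 and 153 CPM in cKO eLPre, against 58.7 and 59 CPM in Ctrl and 46.9 and 63.7 CPM in cKO sPre and an interaction of 0.94 (SE 0.215, adjusted *P* = 0.049). Neither call held with the median-ratio factors of DESeq2 in place of TMM. Of 32 genes of the pre-B cell receptor and its signalling, 1 was more positive and 1 more negative, close to the 3.13% and 2.19% of all well-counted genes. *Vpreb1*, a part of the surrogate light chain, had 225 and 138 CPM in Ctrl and 130.5 and 120.3 CPM in cKO eLPre, against 5.71 and 4.91 CPM in Ctrl and 9.24 and 10.3 CPM in cKO sPre and an interaction of 1.41 (SE 0.289, adjusted *P* = 0.0346). *Rasgrp2*, an activator of Rap1, had 165 and 151 CPM in Ctrl and 167 and 161 CPM in cKO eLPre, against 132 and 168 CPM in Ctrl and 90.7 and 79.7 CPM in cKO sPre and an interaction of -0.87 (SE 0.178, adjusted *P* = 0.0345). With libraries left out the highest adjusted *P* was 0.184 for *Foxo1*, 0.165 for *Lef1* and 0.117 for *Rasgrp2* without cKO eLPre replicate 1, and 0.12 for *Vpreb1* without Ctrl sPre replicate 2.

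Among receptors and antigen presentation genes of later B cells, the differences in cKO sPre were mostly upward. Of 32 well-counted genes, 16 were higher and 4 lower in cKO sPre, and 7 were higher and 7 lower in cKO eLPre. All well-counted genes had 22.8% and 19.7% in sPre, and 18.8% and 22.5% in eLPre, to which the eLPre counts are close. The interaction was more positive in 7 and more negative in 1, against 3.13% and 2.19%, with a median of 0.50. *Ciita*, the master regulator of MHC class II genes, had 69.7 and 83.5 CPM in the Ctrl and 92.2 and 85.4 in the cKO eLPre libraries, and 31.6 and 27.7 in the Ctrl and 126 and 86.3 in the cKO sPre libraries. Its change from eLPre to sPre was -1.37 on the log2 scale in Ctrl and 0.26 in cKO, the latter not past the test, with an interaction of 1.62 (SE 0.244, adjusted *P* = 0.0139). *Fcer2a*, which encodes CD23, had 1.45 and 2.28 CPM in the Ctrl and 1.95 and 1.96 in the cKO eLPre libraries, and 6.03 and 5.33 in the Ctrl and 83.8 and 29.9 in the cKO sPre libraries. Both cKO sPre libraries were above Ctrl, although they differed from each other, and the interaction was 3.24 (SE 0.602, adjusted *P* = 0.0269). *Cd180*, a receptor of the Toll-like receptor family, had 32.8 and 28.6 CPM in the Ctrl and 29.3 and 19.4 in the cKO eLPre libraries, and 59.1 and 59.5 in the Ctrl and 9.58 and 6.92 in the cKO sPre libraries. Its effect passed in sPre and not in eLPre, with an interaction of -2.51 (SE 0.298, adjusted *P* = 0.00612), and this call held without each library in turn. Without Ctrl eLPre replicate 2 the adjusted *P* was 0.0654 for *Ciita* and 0.0975 for *Fcer2a*.

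Markers of other cells were counted beside these genes. The sort left out cells stained for CD11b or CD11c, which *Itgam* and *Itgax* encode, and for T cell, macrophage and erythroid antigens. The summed level of 10 mature B cell markers was 1197 and 1403 CPM in Ctrl and 1683 and 1347 CPM in cKO sPre, and 515.9 to 568 CPM in eLPre. That of 9 dendritic cell markers was 88.2 and 144 CPM in Ctrl and 418 and 375 CPM in cKO sPre, and 11.5 to 24.4 CPM in eLPre. In sPre most of it was *Itgax*, which encodes CD11c, at 63.2 and 114 CPM in Ctrl and 376 and 332 CPM in cKO sPre, with an interaction of 2.12 (SE 0.498, adjusted *P* = 0.0518) that did not pass. It did pass in 6 of the 7 alternatives on 8 libraries, with median-ratio factors as the exception, and the adjusted *P* ranged from 0.000417 to 0.056. The other well-counted gene of that list, *Cox6a2*, a subunit of cytochrome oxidase, went the other way, with an interaction of -1.43 (SE 0.278, adjusted *P* = 0.0297) and effects of 1.91 in eLPre and 0.48 in sPre. The sum of 16 neutrophil and monocyte markers was lower in cKO in both stages, at 125 and 154 CPM in Ctrl and 63.8 and 67.7 CPM in cKO eLPre, and 369 and 435 CPM in Ctrl and 228 and 298 CPM in cKO sPre. Its called gene, *Itgam*, which encodes CD11b, had an interaction of 0.90 (SE 0.204, adjusted *P* = 0.0472), a call lost with median-ratio factors. Those of 9 NK and 7 basophil and mast cell markers were at most 4.92 CPM and those of 11 T cell markers 39.7 to 73.4 CPM in every library, and 1 NK marker was at 0 in all of them. Plasma cell markers, 9 in number, summed to 998 and 941 CPM in Ctrl and 605 and 661 CPM in cKO eLPre, and to 1349 and 1258 CPM in Ctrl and 737 and 947 CPM in cKO sPre. Erythroid markers summed to 393.5 to 600.1 CPM and megakaryocyte and platelet markers to 3.76 to 47.1 CPM over the libraries. The part of other cells in the results was not tested.

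Of 19 well-counted targets of ATF4, the transcription factor of the response to amino acid shortage, 13 were higher in cKO eLPre and 15 in cKO sPre, against 18.8% and 22.8% of all well-counted genes. The interaction was more positive for 3 and more negative for 1, which was *Eif4ebp1*, beside 3.13% and 2.19% of all well-counted genes. *Mthfd2*, an enzyme of mitochondrial folate metabolism, had 75.1 and 66.5 CPM in Ctrl and 105 and 109 CPM in cKO eLPre, against 11.9 and 8.06 CPM in Ctrl and 37.4 and 35.7 CPM in cKO sPre and an interaction of 1.27 (SE 0.225, adjusted *P* = 0.0233). *Aars*, the alanyl-tRNA synthetase, had an interaction of 0.76 (SE 0.138, adjusted *P* = 0.0253) and overlaps Ddx19b by 3974 bases. *Slc7a1*, a transporter of arginine and lysine, had one of 0.91 (SE 0.187, adjusted *P* = 0.0356). Of 21 genes of glycolysis, 3 had a positive interaction, the median was -0.30 and 2 passed as more negative (2.19% of all well-counted genes did). *Pfkl*, a phosphofructokinase, had 49.2 and 41.9 CPM in Ctrl and 41.9 and 46.1 CPM in cKO eLPre, against 31.1 and 31.6 CPM in Ctrl and 15.1 and 18.1 CPM in cKO sPre and an interaction of -0.87 (SE 0.177, adjusted *P* = 0.0343). *Aldoa*, an aldolase, had an interaction of -1.02 (SE 0.233, adjusted *P* = 0.0485). With 1 library left out the highest adjusted *P* was 0.0918 for *Mthfd2*, 0.0964 for *Aars* and 0.151 for *Aldoa* (without cKO eLPre replicate 1), 0.114 for *Pfkl* (without cKO eLPre replicate 2) and 0.12 for *Slc7a1* (without Ctrl eLPre replicate 1).

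In 4 other lists 0 genes passed edgeR's quasi-likelihood test of the interaction with TMM factors and no block. Ribosomal proteins had 75 well-counted genes, a median interaction of 0.04, 1 gene at an unadjusted *P* under 0.05 and 0 called by DESeq2. Subunits of the respiratory chain had 55 genes, a median of 0.23, 6 genes at that level and 0 called by DESeq2. Of these 21 were lower in cKO eLPre and 3 in cKO sPre, where 22.5% and 19.7% of all well-counted genes were. The unfolded protein response had 26 genes, a median of -0.08, 4 genes at that level and 2 called by DESeq2, and cholesterol synthesis had 26 genes, a median of 0.14, 11 at that level and 4 called by DESeq2. With a replicate block within genotype edgeR called 1 ribosomal gene, 4 genes of the respiratory chain, 3 of the unfolded protein response and 6 of cholesterol synthesis, and with median-ratio factors 2 of the unfolded protein response and 1 of cholesterol synthesis.

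Of 29 well-counted interferon-stimulated genes, 0 passed edgeR's quasi-likelihood test, 6 had an unadjusted *P* under 0.05 and 3 were called by DESeq2, and the median interaction was 0.05. *Mx2*, *Oasl1*, *Ifi44* and *Ddx60*, which the study names, did not reach 10 CPM in both libraries of a group and are not among the 29. *Mx2*, a relative of antiviral GTPase genes that the annotation lists as a transcribed pseudogene, had 1.57 and 1.87 CPM in the Ctrl and 5.36 and 20.6 in the cKO eLPre libraries, and 8.02 and 6.72 in the Ctrl and 9.97 and 37.7 in the cKO sPre libraries. *Oasl1*, a relative of the 2'-5' oligoadenylate synthetases, had 4.41 and 3.31 CPM in the Ctrl and 5.55 and 13.3 in the cKO eLPre libraries, and 6.63 and 6.84 in the Ctrl and 6.91 and 22.6 in the cKO sPre libraries. In both genes the cKO replicate 2 library was above cKO replicate 1 in each stage. The same order was found for *Ifi44*, at 0.441 and 4.90 CPM in cKO eLPre and 0.564 and 4.60 CPM in cKO sPre. It was found too for *Ddx60*, an RNA helicase of antiviral signalling, at 3.84 and 8.56 CPM in cKO eLPre and 7.64 and 17.5 CPM in cKO sPre. In Ctrl, *Ifi44* had 2.34 and 2.22 CPM in eLPre and 0.390 and 0.397 in sPre. *Ddx60* had 5.11 and 5.58 CPM in Ctrl eLPre and 4.61 and 4.88 in Ctrl sPre. The effect of *Ddx60* was 0.22 (adjusted *P* = 0.734) in eLPre and 1.41 (adjusted *P* = 0.033) in sPre. That of *Ifi44* was 0.23 (adjusted *P* = 0.89) in eLPre and 2.72 (adjusted *P* = 0.0998) in sPre. The interactions were -1.23 (SE 0.947, adjusted *P* = 0.515) for *Mx2*, -0.15 (SE 0.748, adjusted *P* = 0.94) for *Oasl1*, 2.49 (SE 1.52, adjusted *P* = 0.401) for *Ifi44* and 1.19 (SE 0.597, adjusted *P* = 0.299) for *Ddx60*. These calls depended on the fit, since with a replicate block within genotype 5 of the 29 genes were more positive and 1 more negative, and the adjusted *P* was 0.00585 for *Ifi44*, 0.00988 for *Ddx60*, 0.0133 for *Mx2* and 0.516 for *Oasl1*.

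Among non-reversing protein coding genes outside the lists, the largest more positive effects in sPre were as follows. Of these, *Il9r*, *Dglucy*, *Gpr152* and *Ms4a4c* reached 10 CPM in both libraries of cKO sPre alone. So did *Lrp4*, *Rtn4rl2*, *Clec2g*, *Cd83*, *Fcer2a* and *Trp53cor1*, named above, and *Pcsk4*, named below, did so in cKO eLPre alone. All became members only through the group where they were high, which favours a large interaction. *Il9r* (Entrez 16199, chromosome 11, 32187544 to 32205283), the IL-9 receptor, had 0.0796 and 0.0513 CPM in the Ctrl and 0.230 and 0.239 in the cKO eLPre libraries, and 0.319 and 0.114 in the Ctrl and 62.2 and 55.7 in the cKO sPre libraries. It was under 1 CPM in 6 libraries and well above that in both cKO sPre libraries, with an interaction of 6.29 (SE 0.684, adjusted *P* = 0.00433). *Dglucy*, the mitochondrial D-glutamate cyclase, had 4.29 and 2.92 CPM in the Ctrl and 11.01 and 8.14 in the cKO eLPre libraries, and 0.461 and 0.567 in the Ctrl and 31.6 and 21.9 in the cKO sPre libraries. In Ctrl it fell from eLPre to sPre and in cKO it rose, and the interaction was 4.30 (SE 0.389, adjusted *P* = 0.00285). *Gpr152*, an orphan receptor, had 2.16 and 2.04 CPM in Ctrl and 1.69 and 1.85 CPM in cKO eLPre, against 1.37 and 1.21 CPM in Ctrl and 20.8 and 16.4 CPM in cKO sPre, with an interaction of 4.09 (SE 0.258, adjusted *P* = 0.00068). It overlaps *Cabp4* by 4282 bases.

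Other genes of that direction had low levels in eLPre. *Ms4a4c*, of the membrane-spanning 4A family, had 0.232 and 0.782 CPM in Ctrl and 0.129 and 0.285 CPM in cKO eLPre, against 2.47 and 2.08 CPM in Ctrl and 18.7 and 17.6 CPM in cKO sPre, with an interaction of 4.18 (SE 0.702, adjusted *P* = 0.0197). *Pira2*, a paired immunoglobulin-like receptor, had 0.752 and 0.756 CPM in Ctrl and 0.276 and 0.624 CPM in cKO eLPre, against 13.7 and 18.7 CPM in Ctrl and 147 and 72.6 CPM in cKO sPre, with an interaction of 3.48 (SE 0.581, adjusted *P* = 0.019). *Dnase1l3*, a secreted DNase, had 2.50 and 1.14 CPM in Ctrl and 0.147 and 0.123 CPM in cKO eLPre, against 15.7 and 13.4 CPM in Ctrl and 15.8 and 13.7 CPM in cKO sPre, and its effect passed in eLPre and not in sPre, with an interaction of 3.79 (SE 0.492, adjusted *P* = 0.00884). *Pira2* and *Ms4a4c* belong to families with near-identical copies, and their counts are uncertain. *Il9r* reached an adjusted *P* of 0.0705 without Ctrl eLPre replicate 1, *Ms4a4c* 0.0729 without cKO eLPre replicate 1 and *Pira2* 0.0765 without Ctrl eLPre replicate 1, and the other calls held without each library in turn.

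Among the largest more negative effects outside the lists, some came from a lower cKO level in sPre and some from a higher one in eLPre. *Asb2* (Entrez 65256, chromosome 12, 103321142 to 103356001), a subunit of a ubiquitin ligase, had 8.80 and 6.72 CPM in the Ctrl and 10.8 and 10.03 in the cKO eLPre libraries, and 11.1 and 11.1 in the Ctrl and 1.55 and 1.80 in the cKO sPre libraries. The level in cKO sPre was below all other groups, with an interaction of -3.15 (SE 0.243, adjusted *P* = 0.0018). *Asph*, a hydroxylase of aspartate, had 3.78 and 4.08 CPM in Ctrl and 4.72 and 5.26 CPM in cKO eLPre, against 18.7 and 13.8 CPM in Ctrl and 1.49 and 2.66 CPM in cKO sPre, with an interaction of -3.31 (SE 0.381, adjusted *P* = 0.00545). *Pde4c*, a phosphodiesterase of cyclic AMP, had 1.09 and 2.12 CPM in Ctrl and 3.12 and 2.32 CPM in cKO eLPre, against 69.1 and 74.6 CPM in Ctrl and 27.2 and 25 CPM in cKO sPre, with an interaction of -2.26 (SE 0.367, adjusted *P* = 0.0181). For *Sema3g* and *Pcsk4* the effect passed in eLPre and not in sPre. *Sema3g*, a secreted semaphorin, had 1.84 and 1.82 CPM in Ctrl and 7.44 and 5.61 CPM in cKO eLPre, against 10.4 and 11.1 CPM in Ctrl and 8.80 and 8.85 CPM in cKO sPre and an interaction of -2.11 (SE 0.238, adjusted *P* = 0.00507). *Pcsk4*, a proprotein convertase, had 1.73 and 1.22 CPM in Ctrl and 14.6 and 11.9 CPM in cKO eLPre, against 0.402 and 0.610 CPM in Ctrl and 1.01 and 0.799 CPM in cKO sPre and an interaction of -2.32 (SE 0.387, adjusted *P* = 0.019). Its effect in sPre was 0.84 (adjusted *P* = 0.0509), of the same sign as in eLPre, and the cKO libraries lay above Ctrl in both stages. The adjusted *P* reached 0.0814 for *Pcsk4* and 0.069 for *Pde4c* without cKO eLPre replicate 1, and the calls of *Asb2*, *Asph* and *Sema3g* held without each library in turn.

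**Figure D4:**
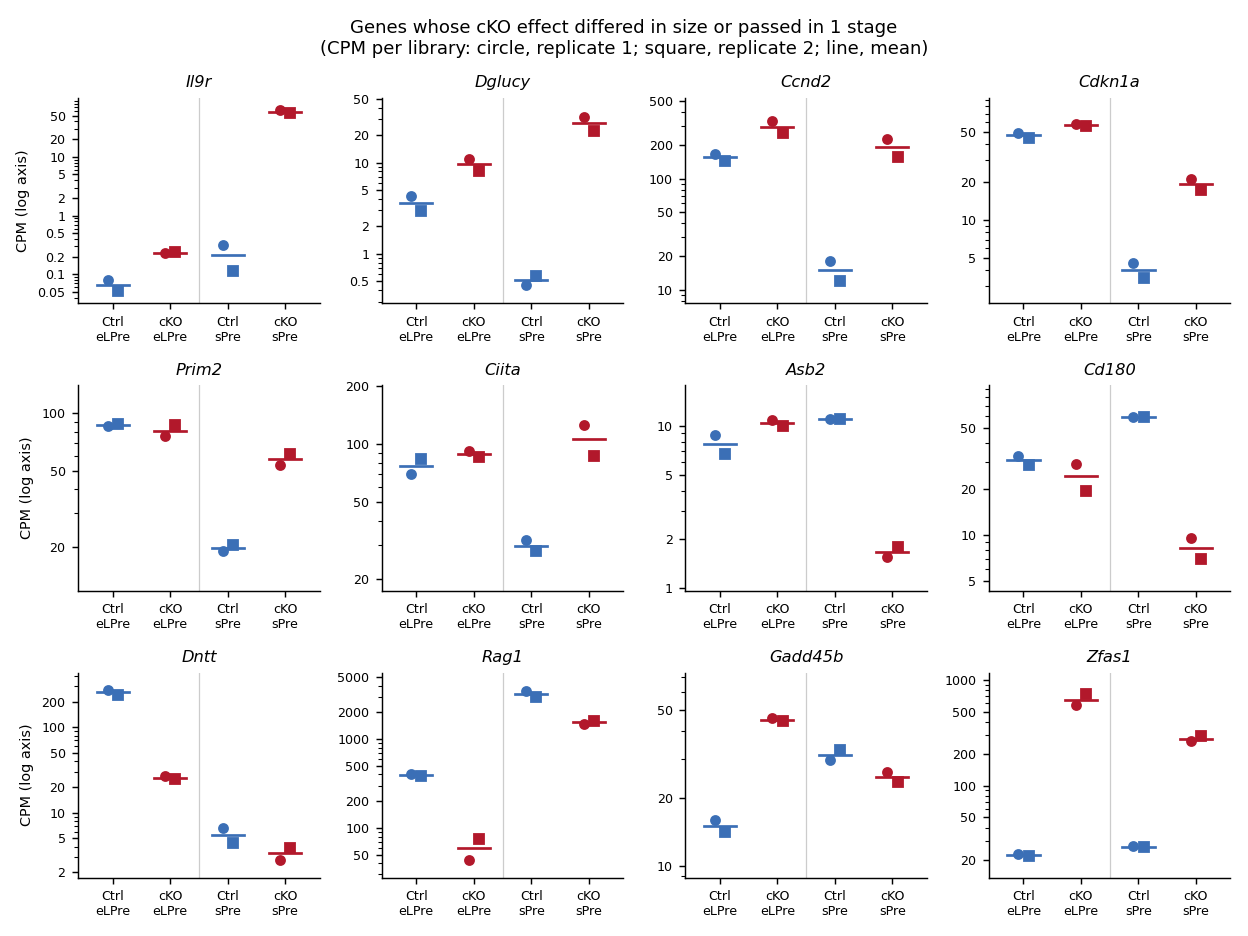
CPM in each library of 12 genes whose cKO effect differed in size or passed in 1 stage, on log axes, blue for Ctrl and red for cKO. *Il9r*, at 62.2 and 55.7 CPM in cKO sPre against at most 0.319 CPM in the other libraries, shows the largest interaction of these, 6.29, and *Asb2* and *Cd180* are lowest in cKO sPre.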

How the data were processed

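Trim Galore was used by the authors for trimming, HISAT2 for alignment to mm10 and featureCounts for the count of each gene, without strand although the library kit was directional, and the counts per Entrez gene were deposited without normalization. Of 27179 genes listed, 25275 were named from RefSeq (GRCm38.p6), and 0 columns were left unassigned. In R 4.3.3, edgeR 4.0.16 was used with TMM factors (0.862 to 1.09), its expression filter by group, 1 mean per group for the 8 libraries (4 residual degrees of freedom) and the two-sided quasi-likelihood F test. The spans of *Smg6*, *Asph*, *Emid1*, *Chaf1a*, *Rfc4*, *Mcm7*, *Jak3*, *Ciita*, *Fcer2a* and *Rag2* overlap those of other protein-coding genes. Each overlap given is of whole gene spans, introns included, and how reads there were assigned was not checked. CPM are TMM-scaled, and SEs are the log2 fold change over the square root of F. The count depth of 68516857 to 160426338 puts 3 counts at 0.0187 to 0.0438 CPM, which covers counting error only. The labels and methods do not say whether libraries of a number share an animal, so P values measure the spread between these libraries.

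Groups came from the genotype and cell type labels. Members, gene lists and tests were chosen with earlier results of these data known. Named were, among well-counted genes past the test with the same sign in 16 library choices, the 8 largest reversing genes and the 6 largest others in each direction (immunoglobulin segments, genes with no symbol or a provisional one and noncoding genes passed over), up to 4 genes of each list by lowest P, and genes the study names. A gene the rule chose is not reported here. The alternatives were edgeR's likelihood-ratio test, DESeq2 1.42.0, median-ratio factors, no filter, 2 replicate blocks, no immunoglobulin genes, limits of 5 and 20 CPM, and each library left out. Leaving out both Ctrl or both cKO replicate 2 libraries was added after the data were seen. Of 811 list entries 6 were not matched. The kappa-B consensus is a motif of 10 bases.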

Additional observations from a re-analysis of the deposited data

Results flagged for a closer look

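The test of the interaction set apart 323 genes with a more positive and 226 with a more negative cKO effect in sPre than in eLPre, and within them 39 and 26 that reversed. Groups of 2 libraries are too small for a search for outlying libraries. The differences below, on the log2 scale and with the adjusted *P* given in the report, are effects in 2 stages that differed by that test. They are values, with no explanation weighed.

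Reversing genes that were lower in cKO eLPre and higher in cKO sPre differed by 5.96 (*Clec2g*), 4.48 (*Lrp4*), 2.87 (*Rtn4rl2*), 2.86 (*Ltb*), 2.47 (*Lipc*), 2.29 (*Ankrd33b*), 2.27 (*Adgrl2*), 2.20 (*Stat4*), 1.73 (*Tnfaip3*), 1.43 (*Bcl6*), 1.26 (*Birc3*) and 1.10 (*Nfkbie*). Those that reversed the other way differed by -3.42 (*Iglv1*), -3.32 (*Iglv2*), -2.62 (*Slc15a3*), -2.45 (*Iglc2*), -2.23 (*Tmem132a*), -1.83 (*Unc5cl*), -1.54 (*Emid1*), -1.35 (*Dhrs3*), -1.33 (*Fndc3b*), -1.31 (*Clip2*), -1.28 (*Klc3*) and -1.25 (*Eif4ebp1*).

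Among genes of the cell cycle, p53 and IL-7 signalling the difference was 2.76 for *Ccnd2*, 2.38 for *Trp53cor1*, 1.99 for *Cdkn1a*, 1.63 for *Prim2*, 1.43 for *Mybl2*, 1.43 for *Zmat3*, 1.26 for *Bub1*, 1.20 for *Mcm7*, 1.10 for *Chaf1a*, 1.07 for *Ccng1*, 0.96 for *Mxd4*, 0.85 for *Jak3* and 0.74 for *Rfc4*. In recombination and B lineage genes it was 3.24 for *Fcer2a*, 2.59 for *Dntt*, 2.37 for *Cd83*, 1.68 for *Rag1*, 1.62 for *Ciita*, 1.41 for *Vpreb1*, 0.94 for *Lef1*, 0.89 for *Rag2*, 0.62 for *Foxo1*, -0.87 for *Rasgrp2*, -0.91 for *Xrcc5*, -1.10 for *Paxx* and -2.51 for *Cd180*, and in the NF-kB kinases and scaffold 1.10 for *Ikbke*, 1.05 for *Map3k8* and 0.81 for *Tank*.

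NMD factors and targets differed by -1.91 (*Gadd45b*), -1.49 (*Zfas1*), -0.99 (*Smg9*), -0.96 (*Snhg12*), -0.81 (*Gas5*) and -0.71 (*Smg6*). Genes of metabolism and stress differed by 1.27 (*Mthfd2*), 0.91 (*Slc7a1*), 0.76 (*Aars*), -0.87 (*Pfkl*) and -1.02 (*Aldoa*). The other genes named differed by 6.29 (*Il9r*), 4.30 (*Dglucy*), 4.18 (*Ms4a4c*), 4.09 (*Gpr152*), 3.79 (*Dnase1l3*), 3.48 (*Pira2*), -2.11 (*Sema3g*), -2.26 (*Pde4c*), -2.32 (*Pcsk4*), -3.15 (*Asb2*) and -3.31 (*Asph*).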

How the results depend on the processing

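The numbers of genes with a more positive and a more negative cKO effect in sPre, 323 and 226, were 627 and 356 with the likelihood-ratio test, 710 and 541 with DESeq2, 747 and 373 without the expression filter and 1025 and 625 with a replicate block within genotype, and the cause was not tested. With median-ratio factors they were 273 and 276, which lowers the share of more positive genes from 58.8% to 49.7% and the median interaction of all genes tested from 0.0702 to 0.0285, and 499 of the 549 genes were shared. The list medians of mitosis and DNA replication stayed positive there, at 0.95 and 0.69. A replicate block gave 427 and 289, with 538 of the 549 genes shared, and no immunoglobulin genes 360 and 240. Limits of 5 and 20 CPM gave 382 and 248, and 260 and 180, since they change the number of genes. The labels do not tie equal numbers to an animal. Deviations of same-numbered libraries correlated over well-counted genes at 0.52 between the stages of Ctrl and 0.313 between those of cKO, and at -0.17 to 0.22 between genotypes. The low values between genotypes kept the replicate block across genotypes out of the reported fit. They do not bear on a block within genotype, which that fit also lacks. *Xist* was low and the Y-linked genes high in the Ctrl replicate 2 libraries of both stages alone. A pairing within genotype was neither stated nor settled. With a replicate block within genotype 1650 genes passed against 549, so the calls depend on this choice. The 39 and 26 reversing genes were 42 and 42 with DESeq2 and 30 and 35 with median-ratio factors, so which direction had more depended on the fit.

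With 1 library left out, the more positive genes numbered 58 to 462, the more negative 39 to 293, and the reversing genes 12 to 92 and 7 to 35, with fewer libraries in each fit. Without both Ctrl replicate 2 libraries the numbers were 46, 31, 11 and 11, and without both cKO replicate 2 libraries 57, 26, 9 and 4, both chosen after seeing the data. Of 75 called genes put through the alternatives (*Gadd45g*, *Snhg1*, *Bbc3*, *Cox6a2* and *Itgam* were not), 0 changed sign under the 15 alternatives (14 for the lambda segments, which the fit without immunoglobulin genes leaves out), 71 stayed past the threshold in the alternatives on 8 libraries and 26 without each library in turn. The exceptions on 8 libraries were *Clec2g*, *Foxo1*, *Lef1* and *Tank*. Their calls were lost with median-ratio factors, at adjusted *P* of 0.0504 to 0.056, and *Clec2g* also with the replicate block. Uncalled *Mx2* ranged from -2.49 to 0.05 and *Oasl1* from -1.25 to 0.61 with 1 library left out. Uncalled *Ifi44* (0.28 to 5.09), *Ddx60* (0.47 to 1.88) and *Mki67* (0.55 to 1.54) kept their sign over all alternatives. Both *Mx2* and *Oasl1* turned positive without cKO eLPre replicate 2, and *Oasl1* to 0.46 without cKO sPre replicate 1. Depth was high, and the 2 libraries per group set the precision.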
